A study of Mus musculus with 32 samples.

Results

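Clade A serpins are the secreted protease inhibitors and hormone carriers that hepatocytes release into plasma, and 10 of their genes were followed here in mouse liver: Serpina1a, Serpina1b, Serpina1c, Serpina1d, Serpina1e, Serpina3k, Serpina3m, Serpina3n, Serpina6 and Serpina12. They were chosen by gene symbol, with Serpina12 in view because it was among the few genes already known to be called lower in 1 of the anti-miR comparisons, so their values are given as a description. All 10 symbols were found among the 24197 genes of the deposited table, which holds 25 Serpina genes, 24 of them on chromosome 12. All 10 reached 1 FPKM (mapped fragments scaled to transcript length and to sequencing depth) in each of the 8 groups, so none was lost to a filter on low values.

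The study used male and female Crl:CD1(ICR) mice, an outbred stock, and sequenced poly(A) RNA of whole liver from 32 mice. Females received LNA-802, an inhibitor of miR-802-5p, males received LNA-1948, an inhibitor of miR-1948-5p, and scrambled LNA went to both sexes. A locked nucleic acid (LNA) is a short modified oligonucleotide that binds a microRNA and blocks it. Each mouse was given 25 mg/kg under the skin on day 0 and again on the next day, and livers were taken on day 3 or day 6.

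The 8 groups were thus scrambled females, LNA-802 females, scrambled males and LNA-1948 males, each on day 3 and on day 6, with 5 mice in each anti-miR group and 3 in each scrambled group. Mice were 9 weeks old at injection, while the age label reads 10 weeks. Every group carried an LNA, so no untreated liver is among them. LNA-802 was tested in females alone and LNA-1948 in males alone, each against scrambled LNA in the same sex. A difference between the inhibitors therefore cannot be told apart from sex, and whether either effect depends on sex is unknown. The table holds the authors' group means, with no value per mouse, so no standard deviation can be given and the read depth is unknown. The errors below are the authors' edgeR p-values and an approximate standard error (SE) worked back from each ratio and its p. A gene is called when its edgeR adjusted p is under 0.05.

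A serpin offers an exposed reactive centre loop as bait, and the protease that cuts the loop is trapped and distorted. Serpina1 genes encode alpha-1-antitrypsin, which protects tissue from neutrophil elastase, and the mouse has several copies where humans have a single functional gene. The mouse Serpina3 genes are relatives of human alpha-1-antichymotrypsin. Serpina6 encodes corticosteroid-binding globulin, a serpin that carries glucocorticoids and inhibits no protease, and Serpina12 encodes vaspin, first described as an adipokine of rat visceral fat. Many hepatocyte genes differ between male and female mice through the sex-specific rhythm of growth hormone release.

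The sequences that bear on the treatment are the microRNA blocked in females and 2 of the oligonucleotides injected, shown so that the seed and the letters pairing with it can be read. Capitals mark bases 2 to 8 of the microRNA (its seed) and the matching letters in the LNA. The mature microRNA is from RefSeq (GRCm38.p6, chromosome 16) and the LNAs are as the submitters gave them.
miR-802-5p: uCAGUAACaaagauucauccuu
LNA-802: gaatctttGTTACTG
scrambled LNA: acgtctatacgccca
LNA-802 pairs with bases 2 to 16 of the microRNA. The only site searched for in transcripts, the match to bases 2 to 8, reads GTTACTG. None of the 10 members has these letters in the 3' UTR of its reference transcript, where 8.36% of 20245 genes have them. The 3' UTRs of the 5 Serpina1 copies are only 84 to 87 bases long, which leaves little room for a match. Among the coding sequences of the members there is 1 match, in Serpina3k, at coding bases 738 to 744, while 6.78% of 21877 genes have a match in theirs. It is shown with 10 bases on each side, the match in capitals.
Serpina3k coding site: tgaaaatgaaGTTACTGactgcacgcc
A match is a description of letters, and the absence of one says only that these letters are not in the reference sequence searched. Transcripts are those of GENCODE M21 on GRCm38, a C57BL/6J reference, and the mice were ICR.

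The 5 Serpina1 copies are shown next, because how alike they are decides how far their separate values can be trusted. Their 1242 coding bases differ at 86 positions, and 18 of these fall in a window of 60 bases that encodes part of the reactive centre loop. Capitals mark the positions at which at least 1 copy differs, in coding bases 1101 to 1160.
Serpina1a: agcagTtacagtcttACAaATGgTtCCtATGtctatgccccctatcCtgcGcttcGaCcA
Serpina1b: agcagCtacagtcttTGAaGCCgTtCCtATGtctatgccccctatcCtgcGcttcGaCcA
Serpina1c: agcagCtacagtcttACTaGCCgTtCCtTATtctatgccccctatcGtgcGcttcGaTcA
Serpina1d: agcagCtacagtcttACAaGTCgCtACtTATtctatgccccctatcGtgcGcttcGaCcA
Serpina1e: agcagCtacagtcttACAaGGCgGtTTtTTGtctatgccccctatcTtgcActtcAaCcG
Over the whole coding sequence, this window included, pairs of copies are 96.3% to 98.5% identical. Of the 50-base words of each transcript, 19.1% are found in the transcripts of no other gene for Serpina1a and 25.8% for Serpina1c. The share rises to 49.1% for Serpina1d, 64.2% for Serpina1b and 64.4% for Serpina1e. How the authors' counting treated reads that match several copies is not given in the sources used here. The separate values of the Serpina1 copies and their order are therefore uncertain. Their sum is given beside them, but it also depends on that counting. The Serpina3 members share 82.7% to 91.6% of aligned coding bases and have 80.9% to 93.1% unique words. For Serpina6 and Serpina12 every 50-base word is unique (100%), and Serpina12 shares 48.9% to 53.7% of aligned coding bases with the other members.

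In liver the members made up 1.85% to 3.09% of the summed FPKM of a group. Serpina3k, which encodes contrapsin, a trypsin inhibitor of mouse plasma, was the most abundant and Serpina1b came next in all 8 groups. Serpina1e was ninth and Serpina12 last in all 8 groups. Between these fixed ends the order changed, and the 8 groups gave 6 distinct orders. The mean level of Serpina3k was 336 to 2392 times that of Serpina12.

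**Figure D1:**
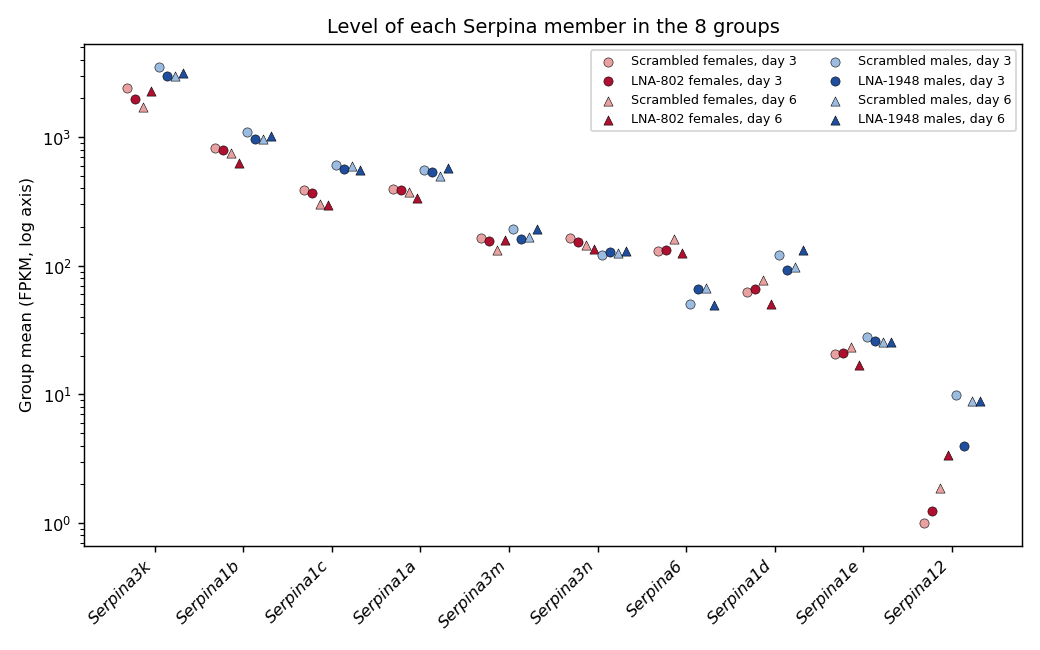
Mean FPKM (log axis) of each of the 10 members in each of the 8 groups, 1 point per group, with no error because values per mouse are not in the table. Serpina12 spans 1.00 to 9.82 FPKM, a wider relative range than any other member, and Serpina6 is higher in all 4 female groups than in any male group. Such separation was not counted over all genes.

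Vaspin was the member that varied most between groups. In females, the authors' mean of Serpina12 was 1.00 FPKM with scrambled LNA and 1.24 FPKM with LNA-802 on day 3, and 1.88 and 3.35 FPKM on day 6. In males it was 9.82 FPKM with scrambled LNA and 3.96 FPKM with LNA-1948 on day 3, and 8.82 and 8.89 FPKM on day 6. All 4 male groups were thus above all 4 female groups, and the day 3 LNA-1948 males lay lowest among the males, close to the day 6 LNA-802 females. How many of all genes separate the sexes in this way was not counted.

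**Figure D2:**
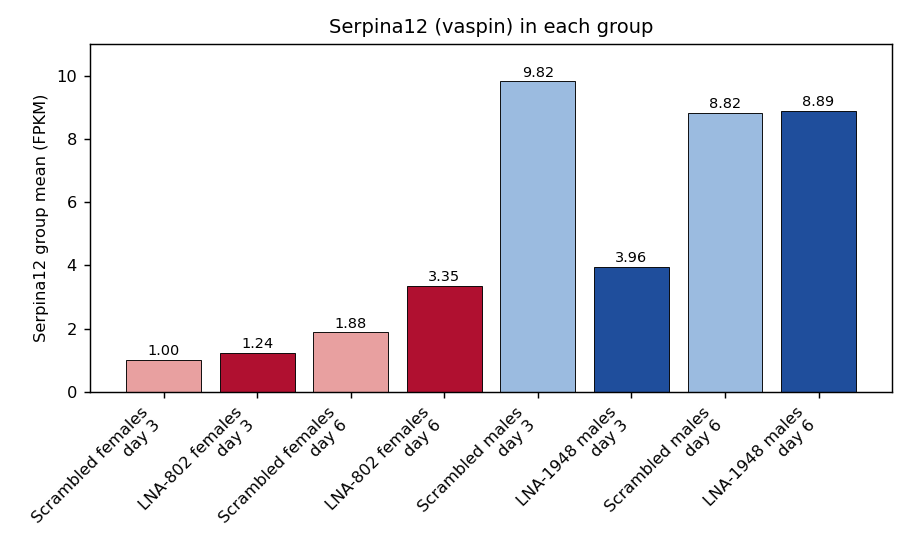
Mean Serpina12 FPKM in each of the 8 groups (bars from 0, the value printed above each bar, no error available). The LNA-1948 males of day 3 stand at 3.96 FPKM, below the other male groups at 8.82 to 9.82 FPKM.

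LNA-1948 was followed by a fall of vaspin mRNA on day 3 and by no called difference on day 6. Serpina12 fell 2.49-fold in the authors' deposited table on day 3 (log2 ratio -1.32, approximate SE 0.19, edgeR adjusted p = 7.39e-08, 5 against 3 mice). It was the only member called in this comparison, 1 of 10, where 0.119% of the 9258 genes at 1 FPKM or more were called. On day 6 the ratio in the authors' deposited table was 0.970 (log2 -0.04, edgeR p = 0.832 before adjustment and 1 after). The approximate 95% intervals of the log2 ratio were -1.69 to -0.95 on day 3 and -0.44 to 0.36 on day 6, and the difference between the days was not tested, since the table has no such comparison. The day 3 fall rests on the gene that the members were chosen around and is no independent evidence about the set.

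The other 9 members showed no called difference after LNA-1948 on day 3, with log2 ratios from -0.41 to 0.39 in the authors' deposited table. Serpina3k had a log2 ratio of -0.25 and Serpina3m, its neighbour and close relative, one of -0.26 in the authors' deposited table, each with an edgeR adjusted p of 1. Serpina6 had a ratio of 1.31 in the authors' deposited table (edgeR p = 0.0321 before adjustment and 1 after). The median log2 ratio of the 10 members was -0.16, beside -0.01 over all genes at 1 FPKM or more.

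Several other gene groups had shifted means in the same livers. Of the genes known to be higher in female liver, 9 of 9 at 1 FPKM or more had positive log2 ratios (median 1.70) and 2 were called higher. Hao2, a peroxisomal oxidase of hydroxy acids, rose from 2.04 to 7.95 FPKM (edgeR adjusted p = 9.48e-05 in the authors' deposited table). Of the genes known to be higher in male liver, 14 of 15 had negative log2 ratios (median -0.40) and 1 was called, the carboxylesterase gene Ces2b, which reached 1 FPKM only in the scrambled males (1.01 against 0.214 FPKM). On day 6 after LNA-1948 the directions differed. Of the female list, 7 of 8 log2 ratios were negative (median -2.10), with 3 genes called lower and 0 higher. Hao2 had 8.90 FPKM in scrambled males and 1.52 FPKM in LNA-1948 males (edgeR adjusted p = 0.0145 in the authors' deposited table). Of the male list, 12 of 14 were positive (median 0.25) and 1 was called higher. Genes near 1 FPKM can enter either list through the group where they are high, so these counts are a description and support nothing. On day 3 the Kupffer cell and macrophage markers summed to 53.7 FPKM in the scrambled males and 78.4 FPKM in the LNA-1948 males. Of these markers, 10 of 10 had positive log2 ratios (median 0.55), 0 were called and 9 had an edgeR p under 0.05 before adjustment. Their part in the fall of Serpina12 was not tested. In bulk liver, fewer cells of a type and less RNA per cell cannot be told apart.

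Vaspin is best known from fat, so markers of adipocytes were read in the same groups. Adipoq, the adiponectin gene, had at most 0.042 FPKM, Lep at most 0.0017 FPKM, Plin1 at most 0.0059 FPKM and Cfd at most 0.044 FPKM. These defining adipocyte markers were thus near 0 in all 8 groups, and the 10 adipocyte markers summed to 2.82 to 4.17 FPKM, of which Fabp4, also expressed by endothelial cells and macrophages, made up 2.64 to 3.94 FPKM. Klk7, which encodes the kallikrein that human vaspin inhibits, was listed at 0 in every group.

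On day 6 after LNA-1948 no member was called by the authors' edgeR test, where 0.239% of 9200 genes were, and 1 member had a p under 0.05 before adjustment. Serpina6 was the member with the smallest p. Its mean was 66.8 FPKM in scrambled males and 49.5 FPKM in LNA-1948 males, a ratio of 0.711 in the authors' deposited table (edgeR p = 0.00375 before adjustment and 0.613 after). On day 3 the order of these groups was the opposite, 50.7 FPKM with scrambled LNA and 66.2 FPKM with LNA-1948, and neither difference passed. The other log2 ratios on day 6 ran from -0.17 in Serpina1c to 0.37 in Serpina1d in the authors' deposited table.

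Inhibition of miR-802-5p in females left all 10 members uncalled on both days. On day 3, 0.0212% of 9418 genes were called, and on day 6, 0.666% of 9457 genes. Before adjustment, 0 members on day 3 and 2 on day 6 had an edgeR p under 0.05. The day 3 log2 ratios of the members lay between -0.30 and 0.27 in the authors' deposited table, with Serpina12 the highest. On day 6 they ran from -0.60 in Serpina1d to 0.85 in Serpina12.

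Serpina12 had a ratio of 1.80 on day 6 in the authors' deposited table (log2 0.85, approximate SE 0.46, edgeR p = 0.0682 before adjustment and 1 after). The approximate 95% interval of this log2 ratio, -0.06 to 1.75, includes 0 and also a rise of over 3-fold, so the table does not show whether vaspin changed. Serpina3k, which has the coding match to the seed, had means of 1715 FPKM with scrambled LNA and 2302 FPKM with LNA-802 on day 6, a ratio of 1.36 in the authors' deposited table (edgeR p = 0.0151 before adjustment and 0.725 after). On day 3 its means were 2401 and 1996 FPKM, so the direction differed between the days. Serpina1e was the member with the smallest p on day 6, at 23.5 FPKM with scrambled LNA and 16.9 FPKM with LNA-802 (ratio 0.727 in the authors' deposited table, edgeR p = 0.000668 before adjustment and 0.124 after). The log2 ratios of the other Serpina1 copies, from -0.60 to -0.01 in the authors' deposited table, were also below 0, and none was called. The summed Serpina1 level was 1530.1 FPKM with scrambled LNA and 1326 FPKM with LNA-802.

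Secreted serpins fold in the endoplasmic reticulum, and genes of the secretory pathway and its chaperones were read beside them. With LNA-802 on day 6, 7 of 20 were called higher and all 20 log2 ratios were positive (median 0.48). Hspa5, the chaperone BiP, rose from 136 to 238 FPKM and Creld2, a stress-induced resident protein of the compartment, from 8.37 to 21.3 FPKM (edgeR adjusted p = 0.00300 and 0.000470 in the authors' deposited table). Genes known to be higher in male liver had a median log2 ratio of 0.47 with 1 of 12 called higher, and genes known to be higher in female liver one of -0.58 with 1 of 20 called higher and 3 lower. Of 24 acute phase genes, 4 were called lower, the metallothionein genes Mt1 and Mt2 and the serum amyloid genes Saa1 and Saa2, with Mt1 at 69.4 FPKM with scrambled LNA and 8.86 FPKM with LNA-802. The Kupffer cell and macrophage markers summed to 96.1 and 76.2 FPKM, with 10 of 10 log2 ratios negative (median -0.31), 0 called and 6 with an edgeR p under 0.05 before adjustment. The same secretory genes were shifted in other comparisons of day 6. With LNA-1948, 20 of 20 log2 ratios were positive (median 0.22) and 0 were called. Between scrambled males and females, 18 of 20 were positive (median 0.35) and 0 were called. On day 3, 11 of 20 were positive with LNA-802, 14 of 20 with LNA-1948 and 5 of 20 between the scrambled sexes. The medians were 0.01, 0.09 and -0.12 in that order, and 0 were called. Hspa5 had 176 FPKM in the scrambled females of day 3. The part of these groups in the members' ratios was not tested.

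**Figure D3:**
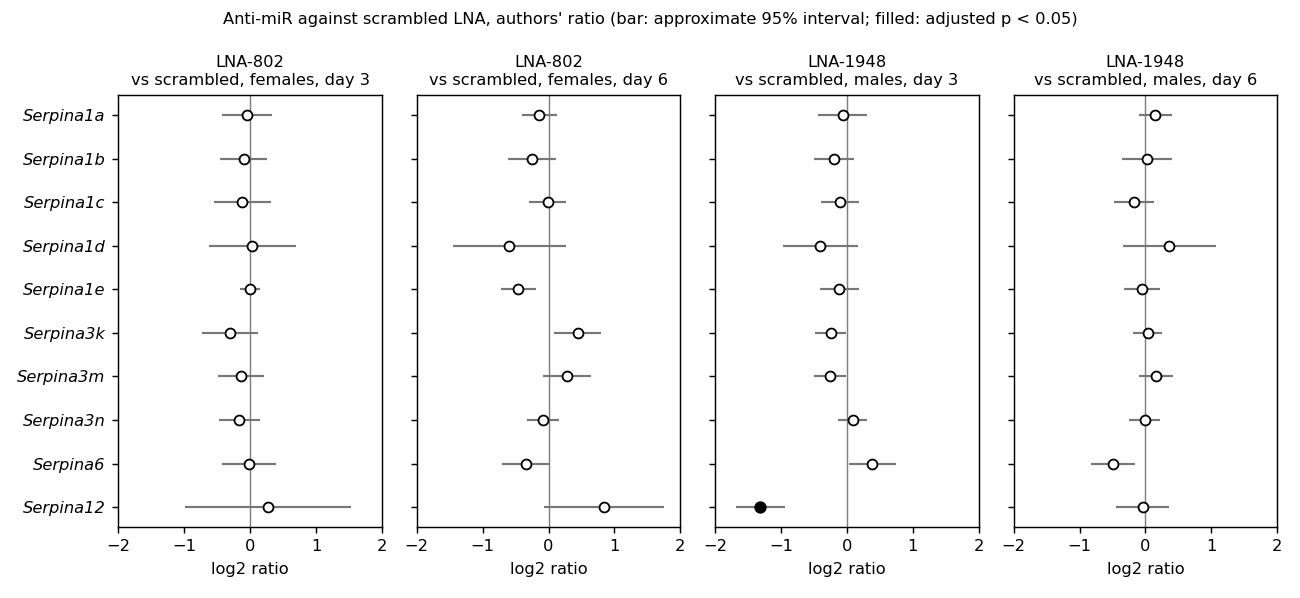
Log2 ratio of anti-miR to scrambled LNA for each member in the 4 anti-miR comparisons (x axis, the authors' ratio), with bars for the approximate 95% interval worked back from the authors' p. Serpina12 after LNA-1948 on day 3, at -1.32, is the 1 filled point, the only member with an edgeR adjusted p under 0.05 among 40 values.

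More members were called between the sexes than in any anti-miR comparison. The scrambled males and females of each day were compared in the authors' deposited table, and the same scrambled groups are the controls of the anti-miR comparisons, so the values are not independent of those above. On day 3, 1 member was called higher in males and 1 lower, where 2.87% of 9462 genes were called higher and 3.55% lower. On day 6, 5 members were called higher and 1 lower, where 4.09% and 4.91% of 9488 genes were. Over both days 5 were called higher and 1 lower, where 6.98% and 7.57% of 9436 genes were. The log2 ratio was positive for 8 of 10 members on each day, with medians of 0.50 and 0.45, beside 0.04 and 0.02 over all genes at 1 FPKM or more.

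Serpina12 was higher in scrambled males by 9.89-fold on day 3 and 4.98-fold on day 6 in the authors' deposited table (by edgeR, adjusted p = 1.01e-19 and 0.000159). The fold depends on a female level near 1 FPKM. LNA-1948 males of day 3, at 3.96 FPKM, lay between the scrambled females of the same day at 1.00 FPKM and the scrambled males at 9.82 FPKM. LNA-802 females of day 6, at 3.35 FPKM, lay between 1.88 FPKM in scrambled females and 8.82 FPKM in scrambled males.

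Serpina6, the carrier of glucocorticoids, went the other way. Its means were 130.1 and 132 FPKM in the scrambled and LNA-802 females of day 3, and 161 and 126 FPKM in those of day 6. In the scrambled and LNA-1948 males they were 50.7 and 66.2 FPKM on day 3, and 66.8 and 49.5 FPKM on day 6. The female and male groups did not overlap. How many of all genes separate the sexes in this way was not counted. Over both days, 27.1% of 9436 genes had an edgeR p under 0.05 before adjustment between the scrambled sexes. That share is a different measure and does not stand in for the missing count. The ratio of scrambled males to scrambled females was 0.393 on day 3 and 0.441 on day 6 in the authors' deposited table (by edgeR, adjusted p = 9.80e-05 and 4.06e-08), so Serpina6 was lower in males on both days.

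Among 16 genes of glucocorticoid carriage and response, Serpina6 apart, 3 were called higher in males and 4 lower on day 3, and 1 higher and 3 lower on day 6. Fkbp5, a co-chaperone of the glucocorticoid receptor, was 8.74 FPKM in scrambled females and 4.05 FPKM in scrambled males on day 3 (edgeR adjusted p = 7.53e-05 in the authors' deposited table). Akr1d1, a reductase that clears steroid hormones, was 50.8 against 27.7 FPKM on day 6, and Srd5a1, another steroid reductase, was 4.33 against 19.7 FPKM (edgeR adjusted p = 0.000346 and 6.27e-29 in the authors' deposited table). Genes were thus called in both directions.

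Alpha-1-antitrypsin copies were higher in males in their means, and part of these differences passed. Serpina1c had 390 FPKM in scrambled females and 604 FPKM in scrambled males on day 3, and 304 and 601 FPKM on day 6. The day 6 ratio was 2.10 in the authors' deposited table (by edgeR, adjusted p = 6.94e-09), and the day 3 ratio of 1.57 did not pass (edgeR adjusted p = 0.0810). Serpina1a had 372 FPKM in scrambled females and 497 FPKM in scrambled males on day 6 (ratio 1.43 in the authors' deposited table, by edgeR at adjusted p = 0.0113). Both genes have few unique words, so which copy carries the difference is uncertain. Serpina1b, Serpina1d and Serpina1e did not pass on either day, with ratios of 1.16 to 1.99 in the authors' deposited table. Over both days Serpina1e, with a ratio of 1.26 in the authors' deposited table, passed as well (edgeR adjusted p = 0.0359). The 5 copies summed to 1694 FPKM in scrambled females and 2413 FPKM in scrambled males on day 3, and to 1530.1 and 2185 FPKM on day 6. The 4 female groups, at 1326 to 1694 FPKM, did not overlap the 4 male groups, at 2175 to 2413 FPKM. Such separation was not counted over all genes.

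The Serpina3 members split. Serpina3k had 2401 FPKM in scrambled females and 3526 FPKM in scrambled males on day 3, a ratio of 1.49 in the authors' deposited table that did not pass (edgeR adjusted p = 0.112). On day 6 it was higher in scrambled males, 2963 against 1715 FPKM (ratio 1.84 in the authors' deposited table, by edgeR at adjusted p = 5.39e-08). Serpina3m, another member of the mouse Serpina3 expansion, was higher on day 6 as well, 168 against 134 FPKM (ratio 1.34 in the authors' deposited table, by edgeR at adjusted p = 0.0431). Serpina3n, an acute phase serpin that inhibits granzyme B, had ratios below 1 in the authors' deposited table, 0.740 on day 3 and 0.918 on day 6, and did not pass (edgeR adjusted p = 0.108 and 1).

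Of 24 acute phase genes, 6 were called lower in scrambled males on each day and none higher by the authors' edgeR test at an adjusted p under 0.05, while 10 and 11 of the log2 ratios were positive, 3 and 6 of them with a p under 0.05 before adjustment. Over both days 9 were called lower and 2 higher. The orosomucoid gene Orm3 had 7.04 FPKM in scrambled females and 0.871 FPKM in scrambled males on day 3, and the metallothionein gene Mt1 57.2 and 3.32 FPKM. Serpina3n was not among the genes called.

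Marker mRNAs of cell types were also compared between the scrambled sexes. The Kupffer cell and macrophage markers summed to 92.5 and 96.1 FPKM in scrambled females and to 53.7 and 55.9 FPKM in scrambled males on days 3 and 6, and 8 and 9 of these markers were called lower in males. The 9 hepatocyte markers in the table summed to 29762 and 27610 FPKM in scrambled females and to 23196 and 25567 FPKM in scrambled males, and most of this was the albumin gene Alb. Without Alb the other 8 summed to 7072 and 6000 FPKM in scrambled females and to 8029 and 7791 FPKM in scrambled males. Cyp3a11 was called higher in males on both days and Ttr on day 6, none was called lower on either day by the authors' edgeR test, and the median log2 ratios were -0.01 and -0.05. In the comparison over both days, 2 were called higher and 1 lower, the latter being Alb (edgeR adjusted p = 0.0199 in the authors' deposited table). Of 10 sinusoidal endothelial markers, 0 were called on either day, and 1, Stab2, was called lower in males over both days (edgeR adjusted p = 0.0291). Of the stellate cell markers at 1 FPKM or more, 2 of 8 were called lower in males on day 3 and 1 of 9 on day 6, and 0 higher. The part of cell composition in the sex differences of the members was not tested.

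Along chromosome 12 the members lie in 1 block with other serpins. In mm9, the build of the authors' files, it runs from 104884841 to 105652539, a span of 768 kb with 23 annotated genes, all Serpina genes, from Serpina6 (104884841 to 104895281) to Serpina3n (105644917 to 105652539). Serpina12 lies in the middle, at 105266978 to 105282653, between Serpina9 and Serpina4-ps1. In all, 18 of the 23 genes reached 1 FPKM in at least 1 group, the 10 members and 8 others. None of these 8 was called in any anti-miR comparison by the authors' edgeR test. Before adjustment, 2 of the 8 had an edgeR p under 0.05 with LNA-802 on day 3 and 5 on day 6, and 0 with LNA-1948 on day 3 and 1 on day 6.

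**Figure D4:**
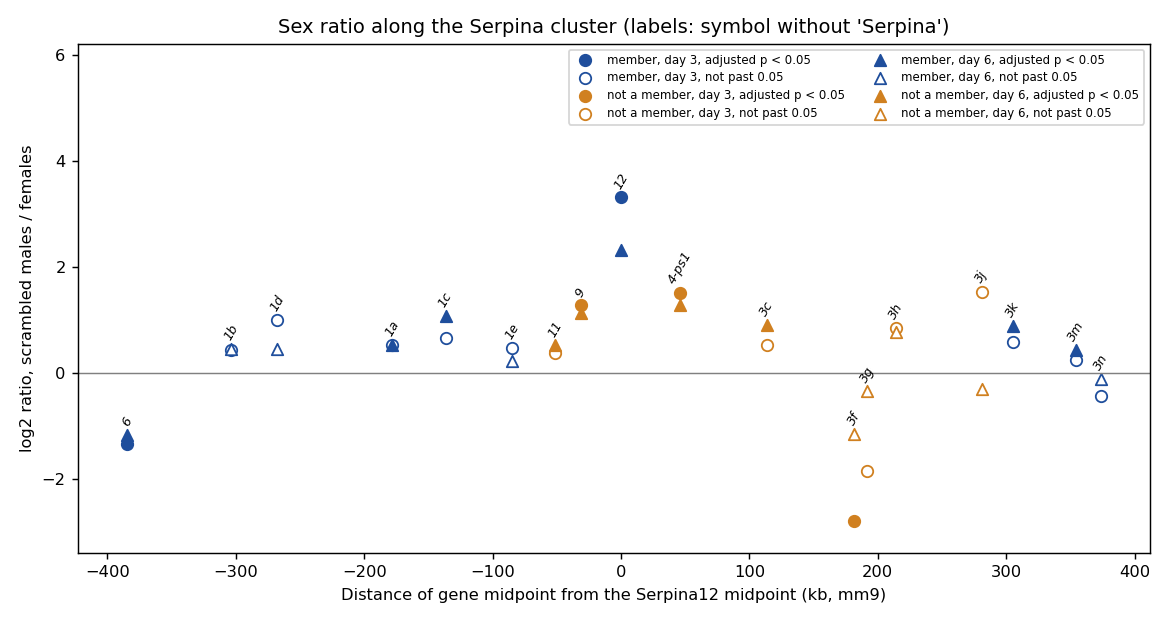
Log2 ratio of scrambled males to scrambled females (y axis, the authors' ratio) against the distance of each gene's midpoint from that of Serpina12 (x axis, kb), for the 18 genes of the block at 1 FPKM or more, with circles for day 3, triangles for day 6 and filled symbols for an edgeR adjusted p under 0.05. Serpina12 has the highest values, 3.31 and 2.32, and the genes on either side of it are also above 0. Below 0 lie 4 genes on day 3 and 5 on day 6. They are Serpina6, Serpina3f, Serpina3g and Serpina3n on both days, and Serpina3j on day 6.

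The genes on either side of Serpina12 were also higher in males. Serpina9 had 2.16 FPKM in scrambled females and 5.10 FPKM in scrambled males on day 3, and 1.96 and 3.99 FPKM on day 6 (ratios 2.41 and 2.19 in the authors' deposited table, by edgeR at adjusted p = 0.0424 and 0.00233). Serpina4-ps1, annotated as a pseudogene by its symbol, had 160.4 and 448 FPKM on day 3, and 162 and 366 FPKM on day 6 (ratios 2.84 and 2.41 in the authors' deposited table, by edgeR at adjusted p = 0.000351 and 3.14e-09). Its level was many times that of the intact Serpina12 gene beside it in every group. Serpina11 and Serpina3c, the next expressed genes on either side, were called on day 6 and not on day 3, with day 6 values of 1.43 and 1.86 (ratio) in the authors' deposited table (by edgeR, adjusted p = 0.00973 and 6.64e-08). Serpina3f was lower in males on day 3, 0.251 against 1.78 FPKM (ratio 0.144 in the authors' deposited table, by edgeR at adjusted p = 0.00183), and its annotated span overlaps that of Serpina3g, so reads of the shared span cannot be told apart by position. Over the 18 genes the median log2 ratio was 0.53 on day 3 and 0.48 on day 6.

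After LNA-1948 on day 3, the fall of Serpina12 had no called counterpart in its neighbours. Serpina9 had a log2 ratio of -0.16 and Serpina4-ps1 one of -0.34 in the authors' deposited table, each with an edgeR adjusted p of 1. After LNA-802 on day 6, Serpina9, Serpina4-ps1 and Serpina11 stood at 0.88, 0.69 and 0.44 (log2 ratio) in the authors' deposited table, beside 0.85 for Serpina12, and none passed (edgeR adjusted p = 0.377, 0.388 and 0.213).

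Upstream sequences are shown for Serpina1c and Serpina12, a pair of members higher in males, to show how far their start regions resemble each other. They are the 250 bases before the annotated start on the minus strand (RefSeq, GRCm38.p6), which are not comparable with the mm9 positions above. Capitals mark GTTAAT, a short motif of the hepatocyte factor HNF1, searched on both strands.
Serpina1c, chr12:103904951-103905200: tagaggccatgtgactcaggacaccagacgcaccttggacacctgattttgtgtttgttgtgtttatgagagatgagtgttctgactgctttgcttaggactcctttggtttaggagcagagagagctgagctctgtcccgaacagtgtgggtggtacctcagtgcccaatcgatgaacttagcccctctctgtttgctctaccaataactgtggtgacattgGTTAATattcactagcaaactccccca
Serpina12, chr12:104044444-104044693: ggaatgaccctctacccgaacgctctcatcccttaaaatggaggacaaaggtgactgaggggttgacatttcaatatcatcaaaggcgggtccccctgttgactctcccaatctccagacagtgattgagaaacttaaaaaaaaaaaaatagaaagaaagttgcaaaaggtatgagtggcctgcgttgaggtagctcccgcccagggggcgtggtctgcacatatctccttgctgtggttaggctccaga
The upstream table held 7 of the 10 members, and Serpina3k, Serpina3m and Serpina6 were not matched. GTTAAT was present upstream of all 5 Serpina1 copies, and 7.49% of 27025 genes have it in the same window. The 5 copies are 92.1% to 98.0% identical over the bases aligned there without a gap, so they are not independent cases. Serpina12 has no GTTAAT and is 42.5% to 52% identical to them over the 179 to 221 bases that aligned without a gap in each pair. What unrelated sequences would give in such an alignment was not measured. The STAT5 motif TTCNNNGAA, also searched on both strands, was in none of the 7 windows and is in 8.13% of all genes' windows. An absent match says nothing about binding of the factor.

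The days were compared only as ratios of the authors' means with a pseudocount of 1 FPKM, with no test, and library series differed between the days. Serpina12 had day 6 to day 3 log2 ratios of 0.52 in scrambled females, 0.96 in LNA-802 females, -0.14 in scrambled males and 1.00 in LNA-1948 males. The medians of the 10 members were -0.11, -0.19, -0.15 and 0.09 in the same order. Genes at least as far from 0 as Serpina12, in either direction, were 0.234% of genes at 1 FPKM or more in LNA-802 females. The share was 0.529% in LNA-1948 males, 2.06% in scrambled females and 23% in scrambled males. The LNA-1948 ratio starts from the day 3 mean of 3.96 FPKM, the low value that brought Serpina12 into view, so its share supports nothing. The female ratios start from 1.00 FPKM with scrambled LNA and 1.24 FPKM with LNA-802, near the limit of 1 FPKM.

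The pattern of vaspin over the 8 groups was then set beside that of other genes, as Pearson's r of log2(mean FPKM + 1). The 5 genes most like it among 422 searched were Nudt7, a peroxisomal coenzyme A hydrolase, with r = 0.96, Pdilt, a protein disulfide isomerase relative known from testis, with r = 0.96, the carboxylesterase gene Ces3b with r = 0.95, Hao1, the glycolate oxidase of liver peroxisomes, with r = 0.95, and Selenbp2, a selenium-binding protein gene, with r = 0.95. The points are 8 group means, 4 of each sex, and a high r is common, since 57 of the 422 genes (13.5%) had r of at least 0.9. Nudt7 had 33.8 FPKM in scrambled females and 135 FPKM in scrambled males on day 3, and 107 FPKM in LNA-1948 males. For Selenbp2 the same groups had 12.5, 283 and 106 FPKM. None of the 5 was called after LNA-1948 on day 3, with edgeR adjusted p-values from 0.118 to 1 in the authors' deposited table. Among the members, Serpina3k had r = 0.82 and Serpina1d r = 0.79 with Serpina12, while Serpina3n and Serpina6 had r of -0.93 and -0.90.

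**Figure D5:**
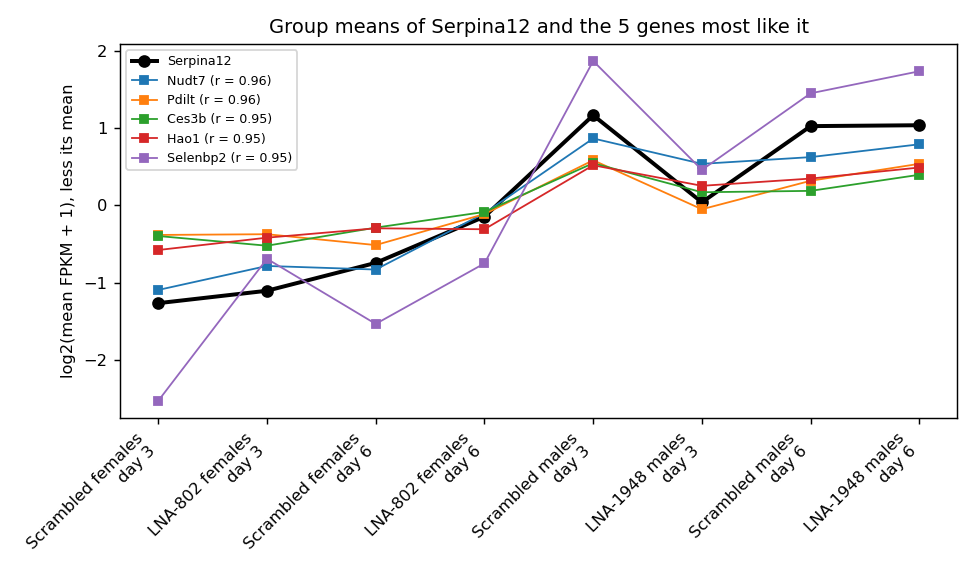
Log2(mean FPKM + 1) less its own mean over the 8 groups (y axis) for Serpina12 and the 5 genes with the highest r, by group (x axis). Lines join the groups to guide the eye. All 6 genes are higher in the male groups than in scrambled females, and all 6 are lower in LNA-1948 than in scrambled males of day 3. The 5 genes were picked by r over these same 8 groups, which favours such a shared shape, so it supports nothing.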

How the data were processed

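Liver poly(A) RNA of 32 mice was sequenced as stranded libraries, per the labels' protocols. The submitters' processing notes name TopHat2, the mm9 genome, featureCounts and edgeR. Their versions, the annotation, the strand setting and the edgeR test used are not given in the sources used here. The deposited table gives, for 24197 genes, the authors' mean FPKM of each of the 8 groups and, for 7 comparisons, the authors' ratio, p-value and adjusted p-value. It has no counts and no values per mouse, so the planned count test gave way to the plan for a table of means: the authors' edgeR values were read as deposited and no test was added. Their adjusted p equals a Benjamini-Hochberg adjustment over all 24197 genes, to within 3.86e-08. Nothing in the table gives depth per sample.

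Calls use an adjusted p under 0.05, and gene lists and backgrounds keep genes whose higher group mean was 1 FPKM or more. The approximate SE is the absolute log2 ratio divided by the normal quantile of the authors' p. It was chosen after seeing the data and is no replicate error. The members and lists were chosen with earlier results of these data known. Named genes are the members, up to 4 genes per list and comparison with the smallest adjusted p under 0.05, Hspa5, genes of the block at 1 FPKM or more, and the 5 genes with the highest r to Serpina12 among those with a mean of 1 FPKM and a log2 range of 1. Where values of an uncalled gene are given, the gene is a member, lies in the block, is a marker or is among the 5 genes most like Serpina12. A gene that the rule names is not reported here.

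Transcripts were from GENCODE M21, microRNA and upstream sequences from RefSeq (GRCm38.p6), and alignments were made with mafft 7.526. Tables were made with Python 3.11.15, pandas 2.3.3, numpy 2.4.6 and scipy 1.17.1, and the scripts were tested on simulated data.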

Additional observations from a re-analysis of the deposited data

How the results depend on the processing

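Of 69 alternative values, 61 stayed within the limits set for them, 8 moved beyond them and none turned the sign of a called value. In 2 of the 61, the uncalled log2 ratio of Serpina12 after LNA-1948 on day 6 went from -0.04 to 0.01, when taken from the FPKM means with a pseudocount of 0.01 or 1. Members called between scrambled males and females of day 3 numbered 4 at an adjusted p under 0.1, and 4 when the authors' p-values were adjusted over genes at 1 FPKM or more, against 2. For the same comparison of day 6 they numbered 4 at an adjusted p under 0.01, against 6, without Serpina1a and Serpina3m. That change is among the 61, since the limit for counts was a ratio of 1.5. Taken from the FPKM means plus 1, the log2 ratio of Serpina12 was -1.13 after LNA-1948 on day 3, against -1.32. Between the scrambled sexes it was 2.43 on day 3, 1.77 on day 6 and 2.08 over both days, against 3.31, 2.32 and 2.75. A pseudocount pulls ratios of low levels towards 0 by construction. With a pseudocount of 0.01, its day 6 to day 3 log2 ratio was 0.90 in scrambled females and 1.43 in LNA-802 females, against 0.52 and 0.96. The other alternatives were an adjusted p under 0.01 in the remaining comparisons, FPKM limits and scaling to the median gene.

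No paired analysis was possible because the deposited table has no values per mouse. Leaving out each mouse in turn was not run for the same reason, so whether 1 mouse decides a group mean is not known here, for Serpina12 as for any member.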

Other observations

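Serpins outside clade A and proteins secreted with them were also read in the scrambled livers. Agt, which encodes angiotensinogen, a serpin without inhibitor function, was lower in males on both days, 106 against 165 FPKM on day 3 and 106 against 165 FPKM on day 6 (edgeR adjusted p = 0.00369 and 0.0299 in the authors' deposited table). Serpinb1a, an inhibitor of neutrophil proteases, was lower in males on day 6, 0.271 against 1.56 FPKM (edgeR adjusted p = 0.000497 in the authors' deposited table). Of 18 other plasma and tissue serpins, 9 reached 1 FPKM on day 3 with 1 called lower and 10 on day 6 with 2 called lower. Among 18 other secreted hepatocyte proteins, Fgl1, a fibrinogen-like protein, was lower in males, 58.8 against 220 FPKM on day 3 (edgeR adjusted p = 3.07e-09 in the authors' deposited table). Ttr, the thyroid hormone carrier transthyretin, was higher in males on day 6, 1967 against 1400 FPKM (edgeR adjusted p = 0.000723 in the authors' deposited table).

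Of 17 hepatocyte transcription factors at 1 FPKM or more, 1 was called higher and 1 lower in scrambled males on day 3, and 1 higher and 2 lower on day 6, where 2.87% and 3.55% of all genes were called higher and lower on day 3 and 4.09% and 4.91% on day 6. Of 17 genes of growth hormone and IL-6 signalling, 2 were higher and 2 lower on day 3, and 2 higher and 1 lower on day 6. From the latter list Cux2, a repressor known to be female-specific in mouse liver, was 4.09 FPKM in females and 0.0308 FPKM in males on day 3 (edgeR adjusted p = 4.11e-114 in the authors' deposited table). From the former list Onecut1, the hepatocyte factor HNF6, was higher in males on day 3, 14 against 5.10 FPKM (edgeR adjusted p = 0.0383 in the authors' deposited table). Nr1i3, the xenobiotic receptor CAR, was lower in males on day 3, 29.3 against 56.5 FPKM, and on day 6, 28.5 against 55.5 FPKM (edgeR adjusted p = 0.000484 and 0.000264 in the authors' deposited table).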
